A study of Rattus norvegicus with 16 samples.

Results

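To look at the cortex of aged rats after short-term curcumin treatment, 4 of the 16 arrays of the series were taken, namely those whose labels give cortex as the tissue and 6 weeks as the time point. There were 2 arrays from curcumin-treated rats and 2 arrays from control rats. All of them were male Sprague-Dawley rats, 15 months old by their labels, and each array held cortical RNA pooled from 3 rats of 1 group of 6. The curcumin-treated rats ate chow with added curcumin for 6 weeks and the controls ate chow without it. Per the study's methods, treated rats and controls also received daily injections of BrdU, a label of dividing cells, at the end of the treatment. Whether the rats on the arrays were among those injected is not given in the sources used here.

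The pools, and not the single rats, are the units of every comparison. Each array is labelled as a biological replicate, but duplicate hybridisations of each RNA are also described in the methods. The 2 control arrays differed widely in some genes given below, such as Pmch at 4.99 and 8.39. Part of the spread between arrays may still be technical, and how much was not tested. The p-values measure only that spread, pooled over the 8 groups of all 16 arrays of the series and not taken from the 4 arrays alone. How far the dissection of the cortex reached is not described in the labels. An array value is a log2 expression value, so a difference of 1 on that scale is a 2-fold change. Fold changes are given as curcumin over control, and a gene passed the test when its limma p-value, adjusted by Benjamini-Hochberg over 27342 transcript clusters, was under 0.05.

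Curcumin is the yellow polyphenol of turmeric, known for antioxidant and anti-inflammatory actions. Most neurons of the cortex are projection neurons, which load glutamate into synaptic vesicles and release it onto spines of other neurons. Inhibitory interneurons use GABA instead, and oligodendrocytes, astrocytes, microglia and vessels make up the rest of the tissue. The striatum, with its dopamine-sensitive neurons, lies under the cortex with the white matter between them, the olfactory bulb lies in front of it, and the hypothalamus lies at the base of the brain. In RNA of whole tissue, fewer cells of a type and less RNA per cell cannot be told apart.

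The cortical label was checked by 6 measured hippocampal genes, of which Prox1, C1ql2, Zbtb20 and Fibcd1 were lower on the 4 arrays than on all 8 hippocampal arrays, while the dim Spink8 and Tdo2 overlapped between the tissues. Prox1, a transcription factor of dentate granule cells, was at 6.17 and 6.53 on the curcumin arrays and at 6.81 and 6.37 on the control arrays, under all 8 hippocampal arrays (7.31 to 8.07). The deposited values hold 27342 transcript clusters, 15097 of them with exactly 1 gene symbol (14324 genes), and array medians over the series ran from 6.35 to 6.44. The 2 curcumin arrays differed by 1.5-fold or more at 398 clusters and the 2 control arrays at 585 clusters. Both control arrays stood apart from the other cortical arrays in genes of neighbouring brain regions, as follows.

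Control replicate 1 carried high levels of striatal genes. Drd1, the D1 dopamine receptor of striatal neurons, was at 6.90 and 7.74 on the curcumin arrays and at 9.06 and 6.56 on the control arrays. Drd2, the D2 dopamine receptor, was at 5.58 and 7.24 with curcumin, against 8.38 and 6.01 in the controls. Ppp1r1b, which encodes the dopamine-regulated phosphatase inhibitor DARPP-32, was at 7.67 and 8.66, against 9.64 and 7.62. In each of these 3 genes control replicate 1 was the highest and curcumin replicate 2 the second of the 4 arrays, and the groups overlapped. Over 14 measured striatal genes the average level was 6.82 and 7.45 on the curcumin arrays and 8.36 and 6.87 on the control arrays, with 6.69 to 7.81 on the 4 cortical arrays of 12 weeks. Control replicate 2 of 12 weeks had Drd1 at 8.65 and Ppp1r1b at 9.07, above all arrays of 6 weeks but control replicate 1.

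Control replicate 2 carried high levels of genes of the olfactory bulb, the hypothalamus, blood and brain coverings. Th, the rate-limiting enzyme of dopamine synthesis and a marker of bulb interneurons, was at 6.07 and 6.03 on the curcumin arrays and at 5.89 and 8.34 on the control arrays. Pmch, the precursor of the hypothalamic peptide melanin-concentrating hormone, was at 4.995 and 4.92 with curcumin, against 4.99 and 8.39 in the controls. Avp, the precursor of vasopressin, was at 6.17 and 5.75, against 5.76 and 8.68. For these 3 genes the other 3 arrays of 6 weeks lay close together, and only control replicate 2 was high. Avp reached 8.14 on 1 of the 12-week arrays, curcumin replicate 2, whereas Th and Pmch stayed at or under 6.29 and 5.14 on all 4 of them. Oxt, another defining hypothalamic gene, was at 8.055 on control replicate 2 of 6 weeks and higher, at 8.775, on curcumin replicate 2 of 12 weeks.

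**Figure D1:**
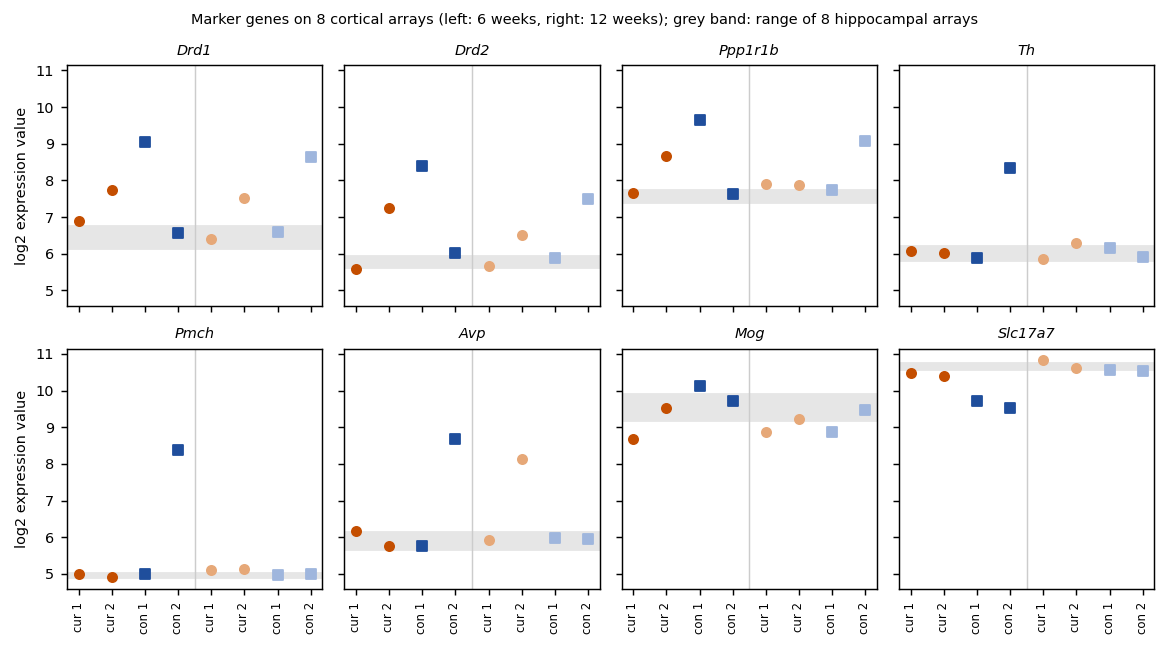
Log2 expression values of 8 marker genes on the 8 cortical arrays, with circles for curcumin arrays and squares for control arrays, darker for 6 weeks and paler for 12 weeks; the grey band spans the 8 hippocampal arrays. Drd1, Drd2 and Ppp1r1b peaked on control replicate 1 of 6 weeks (9.06, 8.38 and 9.64), Th, Pmch and Avp on control replicate 2 (8.34, 8.39 and 8.68), and Slc17a7 was lowest on the 2 control arrays of 6 weeks (9.71 and 9.54).

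The first question was which single genes differed between curcumin-treated and control cortex. Among the genes that passed were genes of glutamate loading, vesicle release and synapse assembly, and all of those with a name were higher with curcumin. In limma 29 of 27342 clusters passed (0.106%), 27 higher (0.0987%) and 2 lower (0.00731%), while 3293 (12.0%) had an unadjusted p under 0.05. Of the 29, 19 carry exactly 1 gene symbol, all 19 of them higher, and the 2 lower clusters carry none. Log2 fold changes of the 19 genes lay between 0.36 and 0.88. On all 29 clusters the curcumin arrays did not overlap with the control arrays, as for 18.9% (above) and 17.4% (below) of all clusters. None of the 29 passed when curcumin replicate 1, curcumin replicate 2 or control replicate 2 was left out, and all 29 passed among 758 clusters when control replicate 1 was left out. In these fits the lone array of a group was assumed to vary like the other groups. None passed either with array weights, or in fits on the 8 cortical arrays or the 4 arrays of the comparison alone. The weights came out equal for the 2 arrays of each group, so they could not turn down a single array. They were 0.682 for the curcumin group and 0.843 for the control group compared here, against 1.72 and 1.65 for those of the hippocampus at 6 weeks. The main fit gave all groups the same spread.

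Slc17a7 encodes VGLUT1, the transporter that fills the vesicles of cortical neurons with glutamate. It was at 10.47 and 10.39 on the curcumin arrays and at 9.71 and 9.54 on the control arrays, a log2 fold change of 0.81 (SE 0.09, limma adjusted p = 0.0368), the smallest adjusted p of this comparison. On the 4 cortical arrays of 12 weeks it lay between 10.52 and 10.84, so both curcumin arrays and both control arrays of 6 weeks were under them, the controls by more. Syn1, synapsin I, which tethers vesicles to the cytoskeleton, was at 9.36 and 9.45, against 8.97 and 8.84, and rose by 0.50 (SE 0.07, adjusted p = 0.0488). Rims1, a scaffold of the release site, was at 9.75 and 9.86, against 9.31 and 9.16, and rose by 0.57 (SE 0.09, adjusted p = 0.0488). Both genes were lower on the control arrays than on any other of the 8 cortical arrays, except that for Rims1 control replicate 1 reached 9.31, above the lowest 12-week array at 9.28.

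Promoters of the genes that passed (RefSeq, rat assembly GRCr8, 300 bases around the gene's start) were searched for short motifs on both strands. Those of the vesicle genes Slc17a7 and Syn1, which held marked motifs, are printed. Capitals mark the E-box CANNTG, the motif of NeuroD and related bHLH factors, and the cAMP response element TGACGTCA. The deposited files name no genome build, and the positions are those of GRCr8.
Slc17a7, chr1:104785955-104786254, + strand: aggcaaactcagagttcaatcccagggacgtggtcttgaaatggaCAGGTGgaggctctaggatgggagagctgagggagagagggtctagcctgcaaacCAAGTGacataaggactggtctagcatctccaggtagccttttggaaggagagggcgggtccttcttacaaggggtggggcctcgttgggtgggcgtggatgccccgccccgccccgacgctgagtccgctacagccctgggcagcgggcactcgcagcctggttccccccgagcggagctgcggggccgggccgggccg
Syn1, chrX:3725495-3725794, + strand: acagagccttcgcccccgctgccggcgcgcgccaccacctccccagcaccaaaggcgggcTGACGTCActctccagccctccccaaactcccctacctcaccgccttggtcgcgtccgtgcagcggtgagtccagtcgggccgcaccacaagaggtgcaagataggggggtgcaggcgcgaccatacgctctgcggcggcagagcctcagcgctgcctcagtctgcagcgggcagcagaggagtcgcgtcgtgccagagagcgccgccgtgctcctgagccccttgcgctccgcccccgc

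The Slc17a7 window held 2 E-boxes and the Syn1 window 1 cAMP response element and no E-box. The window of Rims1, the release-site gene that also passed, held neither motif and is not printed. Promoter windows were found for 17 of the 19 genes that passed. CANNTG was present in 10 of the 17, a smaller share than the 71.6% of all 27457 promoter windows. TGACGTCA was present in 1 of the 17, against 1.91%. GGGCGG, the GC box of Sp1, was present in 11 of the 17, against 34.9%, and TATAAA in 1, against 14.3%. Both parts of the element that binds the neuronal repressor REST were searched as well, with GGACAGCGC in 0 of the 17 (0.441% of all) and TTCAGCACC in 1 (0.379%), that of Elavl4. The median GC content of the 17 windows was 69.7%, against 52.3% over all windows, and the shares were not matched for it. The capitals mark no overlapping matches. A match of letters is a description and not a binding site.

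Genes of synapses and of signalling followed among the genes that passed. Nptx1, neuronal pentraxin 1, which gathers AMPA receptors at synapses, was at 8.97 and 9.04 on the curcumin arrays and at 8.21 and 8.05 on the control arrays, the largest change of the 19 at 0.88 (SE 0.14, adjusted p = 0.0488). Nsmf, which carries signals from synapse to nucleus, was at 9.28 and 9.33, against 8.79 and 8.69. Faah, the hydrolase that breaks down the endocannabinoid anandamide, was at 8.12 and 8.06, against 7.51 and 7.36. In these 3 genes the curcumin arrays were above the control arrays, and the 2 arrays of a group lay much closer to each other than to the other group. The test favours such genes, so this follows from how they were chosen.

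The calcium sensor Ncs1 had the smallest change of the 19 genes and one of the closest pairs of arrays. It was at 9.66 and 9.62 on the curcumin arrays and at 9.29 and 9.28 on the control arrays, a log2 fold change of 0.36 (SE 0.05, adjusted p = 0.0488). Rap1gap2, a GTPase activator of Rap1, was at 9.28 and 9.28, against 8.71 and 8.81. Elavl4, the neuronal RNA-binding protein HuD, was at 8.49 and 8.59, against 8.07 and 7.94. Rab6b, a neuronal GTPase of Golgi traffic, was at 10.15 and 10.35, against 9.82 and 9.70. Here too the groups did not overlap, and the difference between groups exceeded the difference within each group, which again follows from the choice of genes by the test.

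The remaining 9 genes that passed were Mpped1, Sprn, Galnt9, Fam81a, Tagln3, Acsl5, Upf3a, Abhd8 and B4galnt4. Sprn encodes Shadoo, a neuronal relative of the prion protein, and rose by 0.71 (SE 0.10). Galnt9, a glycosyltransferase that starts mucin-type O-glycans and is brain-enriched, rose by 0.70 (SE 0.11). Acsl5, an acyl-CoA synthetase, rose by 0.49 (SE 0.08), and Upf3a, a factor of nonsense-mediated RNA decay, by 0.47 (SE 0.07), each with an adjusted p = 0.0488. Mpped1 had the widest spread between control arrays (7.94 and 7.54) beside curcumin arrays at 8.45 and 8.58, yet its lower curcumin array was still above its higher control array.

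**Figure D2:**
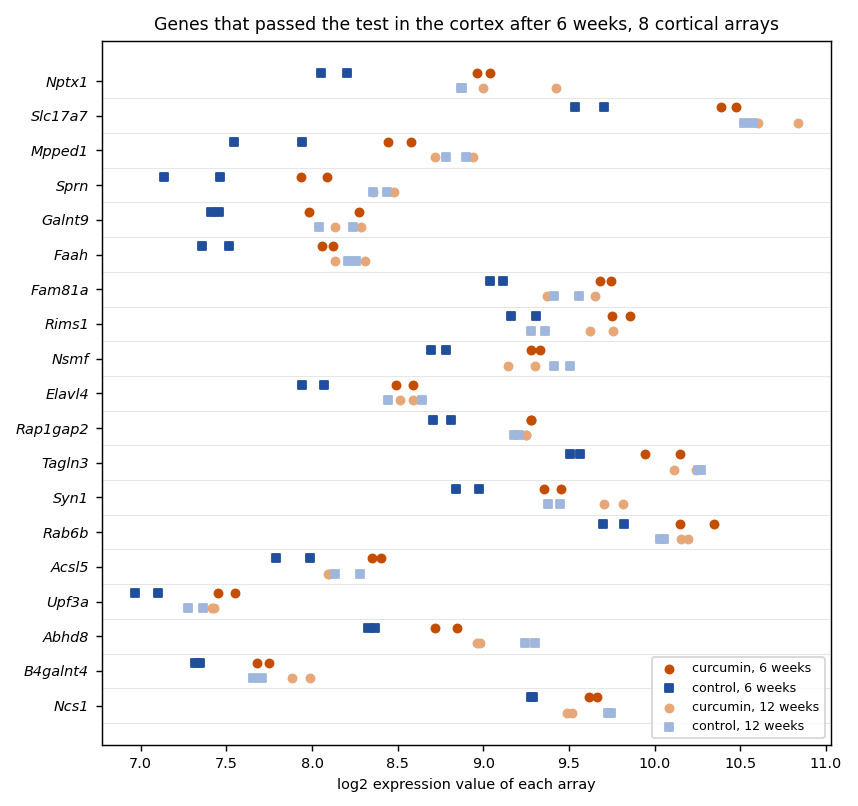
Log2 expression values of the 19 named genes that passed the test, on the 8 cortical arrays (circles for curcumin, squares for control, darker for 6 weeks and paler for 12 weeks), ordered by log2 fold change at 6 weeks. In 18 of the 19 genes both control arrays of 6 weeks lie left of the other 6 cortical arrays, and the curcumin arrays of 6 weeks lie among or near the 12-week arrays.

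Among the genes that passed, it was mostly the control arrays that lay away from the rest of the cortex. In 18 of the 19 genes both 6-week control arrays were below all 6 other cortical arrays, which held for 7.59% of all 14324 genes, and Rims1 was the exception. Among all 29 clusters it was 24, against 8.02% of all clusters, and the 2 lower clusters had both control arrays above the other 6 (7.31% of all clusters). This comparison uses the control values that also chose the genes, and the curcumin arrays of 6 weeks are part of both, so it is a description.

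By size alone, without a test, more clusters were lower than higher, a split that turned without curcumin replicate 1. A fold change of 1.5 or more, or of 0.66 or less, was seen at 341 clusters (1.25%), 133 higher (0.486%) and 208 lower (0.761%), and 10 of the 341 also passed limma. Without curcumin replicate 1 the counts were 263 higher and 186 lower. The total of 341 became 562 without curcumin replicate 2 and 801 without control replicate 1. Genes with 1 symbol numbered 90 higher and 157 lower. The 12 highest and the 12 lowest genes with separate arrays, leaving out the dimmest 25% of clusters, were as follows.

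The highest genes included further genes of vesicle fusion, dendrites and neuronal transcription. Gpr22, an orphan receptor of brain and heart, was at 7.72 and 7.53 on the curcumin arrays and at 6.90 and 6.41 on the control arrays, a log2 fold change of 0.97 (SE 0.17, adjusted p = 0.0552). Stx1a, the syntaxin of vesicle fusion, was at 9.77 and 9.92, against 9.02 and 8.83 (0.92, SE 0.18, adjusted p = 0.0844). Itpka, a kinase of inositol trisphosphate in dendritic spines, was at 8.38 and 8.37, against 7.96 and 6.92 (0.94, SE 0.25, adjusted p = 0.159). Control replicate 2 was the lowest array in Gpr22, Stx1a and Itpka, and in Itpka it was lower than control replicate 1 by more than that array was below the curcumin arrays.

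A set of transcription factors of projection neurons was also among the 12. Neurod1 was at 7.17 and 6.51, against 5.96 and 5.99 in the controls (0.87, SE 0.17, adjusted p = 0.0758). Neurod6, which marks the projection neurons of the cortex, was at 8.18 and 8.76, against 7.79 and 7.43 (0.86, SE 0.19, adjusted p = 0.114), and Bhlhe22, a related factor, was at 7.18 and 6.41, against 6.31 and 5.62. The others of the 12 were Tmem200a, Ccn3, Nptx1, Chrna5, St6gal2 and Ephb6. Of all 12, only Nptx1 passed the test, and in 10 of them both control arrays were below the other 6 cortical arrays. Without control replicate 2 their log2 fold changes were 0.42 to 0.90. Their sign could not change, since only genes with separate arrays were taken.

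The lowest genes included genes of blood, of antigen presentation and of other brain regions, and none of the 12 passed the test (adjusted p = 0.0873 to 0.445). Trh, the precursor of thyrotropin-releasing hormone, was at 5.67 and 5.77 on the curcumin arrays and at 6.56 and 8.21 on the control arrays (-1.66, SE 0.45). Hbb-b1, a beta globin of red blood cells, was at 7.06 and 6.92, against 7.72 and 9.46 (-1.60, SE 0.47). It shares sequence with Hbb, at -1.27, so the 2 may not be measured apart. Pbx3, a homeobox factor of olfactory bulb neurons, was at 6.97 and 6.88, against 7.92 and 9.003 (-1.54, SE 0.32). Control replicate 2 was the highest of the 8 cortical arrays in 10 of the 12 genes, and without it the log2 fold changes of the 12 ran from -1.31 to -0.04.

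Cd74 and Meis2 were high on both control arrays. Cd74, the invariant chain of MHC class II, was at 7.01 and 7.66, against 8.64 and 8.60 (-1.29, SE 0.45, adjusted p = 0.273). Meis2, a homeobox factor of striatal and bulb neurons, was at 7.87 and 8.33, against 8.95 and 9.45 (-1.10, SE 0.22, adjusted p = 0.0873). In Cd74 the 2 control arrays were nearly equal, and its 12-week arrays reached from 7.34 to 10.67. The other genes of the 12 were Scn7a, Scgn, Pcp4l1, Alox15, Sv2c and 6330403K07Rikl.

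The second question was how groups of genes moved. Over all 14324 genes the median log2 fold change was 0.002 and 50.6% were positive, and the gene lists below are described beside these values by counts and medians, with no test. Of the 555 measured list members, only Slc17a7, Syn1, Rims1 and Nptx1 passed the test, against 19 of all 14324 genes (0.133%). All 19 were higher, so no list member could pass in the lower direction. Both curcumin arrays lay above both control arrays for 19.5% of all genes and below both for 18.0%.

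Genes of projection neurons were higher with curcumin on average. Of 16 measured, 15 had positive log2 fold changes (median 0.47), and 13 had both curcumin arrays above both control arrays. The study's own tables, made from these arrays, name some of these genes, so this count is not independent evidence of the direction. Fezf2, which specifies deep-layer neurons that project below the cortex, was at 8.03 and 8.15 on the curcumin arrays and at 7.46 and 7.11 on the control arrays (0.80, SE 0.18, adjusted p = 0.118). Camk2a, the kinase of excitatory synapses, was at 11.58 and 11.66, against 11.22 and 11.09 (0.46, SE 0.10, adjusted p = 0.101). The average level of the 16 genes was 8.47 and 8.48 on the curcumin arrays and 8.08 and 7.89 on the control arrays. On the 12-week cortical arrays it was 8.24 to 8.45, so the 2 control arrays of 6 weeks were the lowest of the 8.

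Vesicle release genes had 27 of 32 positive log2 fold changes (median 0.31), with 22 of 32 curcumin pairs above the control pairs. Rab3a, the small GTPase on vesicles, was at 9.80 and 9.88, against 9.48 and 9.51 (0.34, SE 0.06, adjusted p = 0.0520), while Sv2b, a vesicle membrane protein, and Doc2a, a calcium sensor of release, had log2 fold changes of 0.78 and 0.66. The lowest of the 5 negative values was that of Sv2c, a vesicle protein strong in basal ganglia, at 7.48 and 8.51, against 9.25 and 9.02 (-1.14, SE 0.46, adjusted p = 0.348). Postsynaptic genes had 27 of 32 positive values (median 0.28, and 0.19 without control replicate 2). Grin2a, a subunit of NMDA receptors, was at 9.52 and 9.82, against 9.13 and 8.98 (0.62, SE 0.13, adjusted p = 0.101), and Dlg3, a scaffold of these receptors, was at 9.21 and 9.18, against 8.84 and 8.81 (0.37, SE 0.06, adjusted p = 0.0547). Nptx2 and Nptxr, the partners of Nptx1, had log2 fold changes of 0.40 and 0.69.

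Ion channels and receptors followed with smaller medians. Potassium channel genes were positive in 32 of 42 (median 0.18, and 0.32 without curcumin replicate 1), with Kcnt2, a sodium-activated channel, at 0.78 (SE 0.16, adjusted p = 0.0874). Sodium and calcium channel genes were positive in 14 of 22 (median 0.17, and 0.01 without curcumin replicate 2), with Scn2a, a sodium channel of excitatory axons, at 0.49 (SE 0.10, adjusted p = 0.0758). GABA-A receptor subunits were positive in 7 of 10 (median 0.13, and 0.04 without curcumin replicate 1), with Gabra3 at 9.52 and 9.27, against 8.88 and 8.83 (0.54, SE 0.11, adjusted p = 0.0993). Among peptide receptors, 10 of 20 were positive, and Sstr1, a somatostatin receptor, was at 7.51 and 7.47, against 6.86 and 6.81 (0.65, SE 0.11, adjusted p = 0.0520).

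Sterol synthesis genes were positive in 15 of 16 (median 0.26, and 0.15 without control replicate 2), in a narrow range from -0.08 to 0.40. Idi1, an isomerase of the pathway, was at 7.45 and 7.51 on the curcumin arrays and at 7.14 and 7.02 on the control arrays (0.40, SE 0.12, adjusted p = 0.206). Srebf2, the transcription factor of the pathway, was at 8.89 and 8.91, against 8.66 and 8.55 (0.29, SE 0.07, adjusted p = 0.135). In 12 of the 16 genes both curcumin arrays were above both control arrays, against 19.5% of all genes. The median of the list was 0.26 at 6 weeks, against -0.24 in the cortex at 12 weeks.

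**Figure D3:**
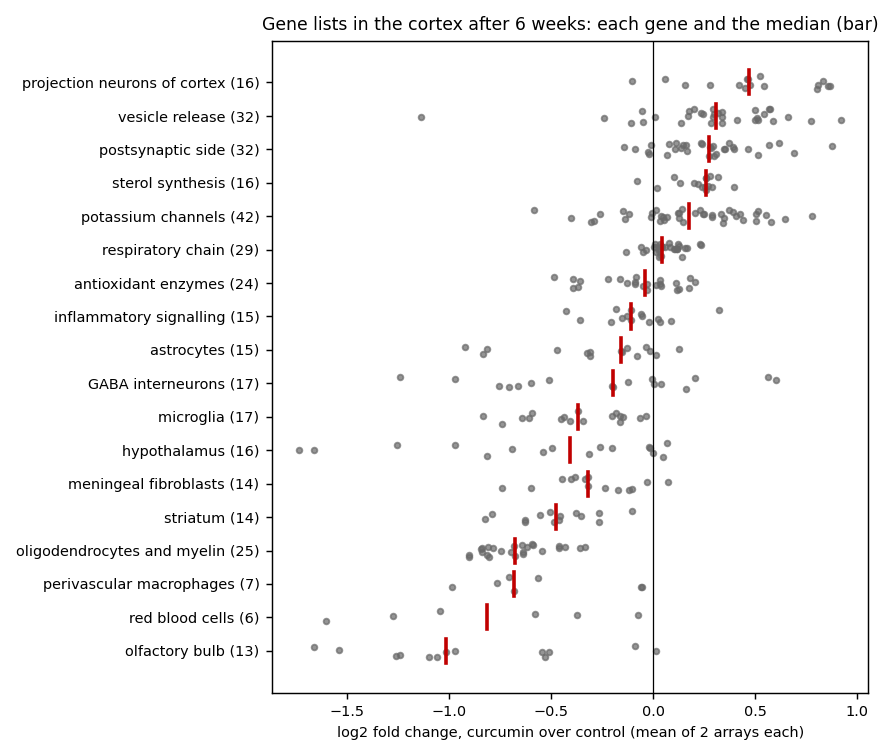
Log2 fold change, curcumin over control, of each measured gene of 18 lists in the cortex after 6 weeks (points, 2 arrays per group) with the median of the list (bar) and the number of genes measured in brackets. Medians run from 0.47 for projection neurons to -1.02 for the olfactory bulb.

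Genes of other cells and regions were lower on average, and the array that set the value differed from list to list. Oligodendrocyte and myelin genes were negative in 25 of 25 (median -0.68), with both curcumin arrays below both control arrays in 14. Mog, a myelin surface protein, was at 8.68 and 9.53 on the curcumin arrays and at 10.12 and 9.71 on the control arrays (-0.81, SE 0.32, adjusted p = 0.339). The average of the list was 7.83 and 8.64 with curcumin and 9.14 and 8.67 in the controls, so that curcumin replicate 1 was the lowest and control replicate 1 the highest of the 8 cortical arrays. The median was -0.25 without curcumin replicate 1, -1.15 without curcumin replicate 2 and -0.40 without control replicate 1.

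Microglial genes were negative in 17 of 17 (median -0.37, and -0.38 to -0.31 without any 1 of the 4 arrays), with the arrays apart in 15. Cd68, a lysosomal protein of phagocytes, was at 5.45 and 5.55, against 5.97 and 6.70 (-0.83, SE 0.19, adjusted p = 0.119). The defining genes of microglia were uneven. Csf1r, the receptor of a growth factor of microglia, was at 8.45 and 8.43, against 8.74 and 8.82 (-0.34, SE 0.15, adjusted p = 0.395). P2ry12, a purine receptor, was at 7.18 and 7.20, against 7.42 and 7.28 (-0.16, SE 0.12, adjusted p = 0.691), and Cx3cr1, the fractalkine receptor, at -0.20 (SE 0.15, adjusted p = 0.700). Aif1 had -0.15 (SE 0.15, adjusted p = 0.817). The complement genes C1qa, C1qb and C1qc had -0.59, -0.64 and -0.74. In 2 of the 17 genes both control arrays were above the other 6 cortical arrays (7.93% of all genes), and in the others at least 1 array outside the controls reached their level.

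Astrocyte genes were negative in 13 of 15 (median -0.16, and -0.29 without control replicate 1) and spread widely. Gfap, the filament of reactive astrocytes, was at 8.96 and 9.20 on the curcumin arrays and at 9.95 and 9.84 on the control arrays (-0.81, SE 0.24, adjusted p = 0.199). Fabp7, a fatty acid carrier of glia, was at 9.03 and 8.92, against 9.53 and 10.26 (-0.92, SE 0.18, adjusted p = 0.0862). Slc1a3, the glutamate transporter that most astrocytes carry, differed less, at 10.07 and 10.03, against 10.12 and 10.23 (-0.13, SE 0.08, adjusted p = 0.602).

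Genes of inhibitory neurons split. Gad1 and Gad2, which make GABA, were at -0.76 (SE 0.15, adjusted p = 0.0885) and -0.66 (SE 0.16, adjusted p = 0.134), with Gad1 at 9.39 and 9.77, against 10.11 and 10.56. Pvalb and Sst, which mark the main cortical interneurons, were at 0.01 (SE 0.20, adjusted p = 0.996) and 0.16 (SE 0.13, adjusted p = 0.720). Dlx5, a homeobox factor of striatal, bulb and cortical inhibitory neurons, was at 6.29 and 6.78, against 7.46 and 7.55 (-0.97, SE 0.18, adjusted p = 0.0693). Of 17 genes, 11 were negative (median -0.20, but -0.46 without control replicate 1 and -0.05 without control replicate 2). Gad1, Gad2 and Dlx5 are also made by striatal and bulb neurons, whose genes were high on control replicate 1 and control replicate 2 as given above, and their part in these values was not tested.

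The lists of neighbouring regions turned on single control arrays. The olfactory bulb list (13 measured, 1 positive) had a median of -1.02, and 0.01 without control replicate 2. The hypothalamic list (16 measured, 3 positive) had -0.41, and -0.04 without that array. The striatal list (14 measured, 0 positive) had -0.47, but 0.35 without control replicate 1, -1.27 without control replicate 2, -0.10 without curcumin replicate 1 and -0.80 without curcumin replicate 2. Average levels of the olfactory bulb list were 6.28 and 6.19 on the curcumin arrays and 6.51 and 7.73 on the control arrays, and those of the hypothalamic list 6.18 and 5.95, against 6.24 and 6.995. Some defining genes of these regions were near the low end on every array, as Tbx21 of bulb mitral cells at 5.15 to 5.44 and Sim1 of the hypothalamus at 5.29 to 5.42 on the 4 arrays.

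The red blood cell, macrophage, meningeal and mural cell lists followed control replicate 2 as well. Red blood cell genes were negative in 6 of 6 (median -0.81, but -0.36 without control replicate 2 and -1.34 without control replicate 1), with Hbb at 8.05 and 7.82, against 8.50 and 9.91. Perivascular macrophage genes were negative in 7 of 7 (median -0.68, but -0.12 without that array and -1.19 without control replicate 1), with the scavenger receptor Cd163 at 6.14 and 5.94, against 6.47 and 7.58 (-0.98, SE 0.27, adjusted p = 0.172). Meningeal fibroblast genes had a median of -0.32, but 0.18 without that array and -0.85 without control replicate 1, mural cell genes -0.17 and 0.06, and thalamic genes -0.30 and 0.12. The part of other tissue on these arrays in the differences of neuronal and glial genes was not tested. Leaving out control replicate 2, which held most of the bulb, hypothalamic and blood genes, left the projection neuron median at 0.39 and the vesicle release median at 0.27, and leaving out control replicate 1, which held most of the striatal genes, left them at 0.58 and 0.38. With either array out, the other control array, with its own regional genes, was the only control.

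**Figure D4:**
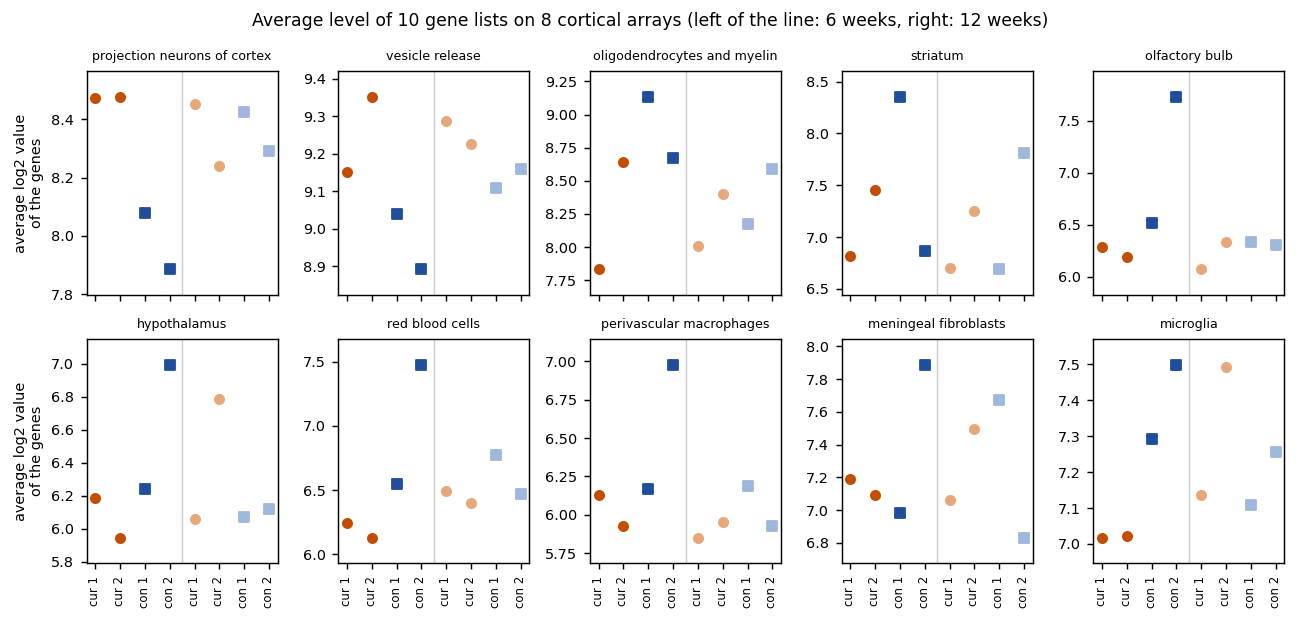
Average log2 value of the measured genes of 10 lists on each of the 8 cortical arrays (cur, curcumin; con, control; 1 and 2, replicates), 6 weeks left of the line and 12 weeks right of it, each panel with its own vertical axis. The projection neuron list is lowest on the 2 control arrays of 6 weeks (8.08 and 7.89), the striatal list highest on control replicate 1 (8.36), and the olfactory bulb list highest on control replicate 2 (7.73).

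Pathways that curcumin has been studied for in other settings had no member that passed the test. Since only 0.133% of all genes passed, nothing is read from that. Antioxidant genes were positive in 10 of 24 (median -0.04, and -0.11 to 0.001 without single arrays), with Nfe2l2, the transcription factor NRF2, at 7.09 and 7.30 on the curcumin arrays and at 7.69 and 7.68 on the control arrays (-0.49, SE 0.16, adjusted p = 0.254). Inflammatory signalling genes were positive in 4 of 15 (median -0.11, and -0.17 to -0.02 without single arrays), with both curcumin arrays below both control arrays in 5 of the 15 (33.3%), against 18.0% of all genes. Of this list, Rela, a subunit of NF-kappaB, was at -0.21 (SE 0.07, adjusted p = 0.253) and Ptgs2, cyclooxygenase 2, was at 0.32 (SE 0.18, adjusted p = 0.534). Heat shock chaperones were positive in 6 of 13 (median -0.01), histone acetylation genes in 7 of 17 (median -0.05) and amyloid processing genes in 4 of 12 (median -0.07). Neurotrophin genes were positive in 6 of 8 (median 0.14), with Bdnf, the main growth factor of this list, at 6.58 and 6.31, against 6.34 and 6.21 (0.17, SE 0.11, adjusted p = 0.601). Respiratory chain genes were positive in 25 of 29, with a median of 0.05 (-0.01 to 0.14 without single arrays) and a range from -0.13 to 0.24.

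The third question was whether the effect at 6 weeks differed from that at 12 weeks in the cortex. The 2 comparisons share no arrays, and in limma the difference between them passed for 402 clusters (1.47%), with 280 more positive at 6 weeks (1.02%) and 122 more negative (0.446%). The 402 became 17 when control replicate 2 was left out, 62 when curcumin replicate 2 was, and 1041 when control replicate 1 was. Of the 19 genes above, 11 were among them, against 1.85% of all genes. Since these genes were chosen by the 6-week values that also enter the difference, nothing is read from that count. At 12 weeks itself 885 clusters passed (3.24%). Nsmf had a log2 fold change of 0.57 (SE 0.08) at 6 weeks and of -0.24 at 12 weeks, a difference of 0.80 (SE 0.11, adjusted p = 0.0137). Ncs1 had 0.36 at 6 weeks and -0.23 at 12 weeks, a difference of 0.59 (SE 0.08, adjusted p = 0.0137). Abhd8, a hydrolase-like protein, had 0.44 and -0.30, a difference of 0.74 (SE 0.10, adjusted p = 0.0127). The same was not shown for Syn1, with 0.50 at 6 weeks and 0.35 at 12 weeks (difference 0.15, SE 0.10, adjusted p = 0.581), nor for Rims1, with 0.57 and 0.37 (difference 0.20, SE 0.12, adjusted p = 0.522). Among the 19 genes, 12 had a positive value at 12 weeks, in a range from -0.30 to 0.37. Syn1, Rims1 and B4galnt4 also passed limma at 12 weeks, each higher (adjusted p = 0.0286, 0.0418 and 0.0413). Ncs1 and Abhd8 passed there in the lower direction (adjusted p = 0.0443 and 0.0378).

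The differences between durations also took in MHC class II genes. Cd74 had -1.29 at 6 weeks and 2.44 at 12 weeks, a difference of -3.73 (SE 0.64, adjusted p = 0.0256), RT1-Da had -0.98 and 2.12 (difference -3.10, SE 0.67, adjusted p = 0.0496), and RT1-Ba had -0.58 and 0.93 (difference -1.51, SE 0.27, adjusted p = 0.0295). These genes form near-identical families in the rat, so their probes may share signal. The genes with the smallest adjusted p for this difference were Slc15a2, a peptide transporter, with 0.27 at 6 weeks and -0.79 at 12 weeks (difference 1.06, SE 0.08, adjusted p = 8.0e-04), and Mob4, with 0.22 and -0.73 (difference 0.94, SE 0.08, adjusted p = 0.00131). In both, the values at 6 weeks did not pass the test (adjusted p = 0.107 and 0.163). Across 14324 genes the Pearson correlation between the log2 fold changes at 6 and 12 weeks was -0.03, where genes are not independent replicates.

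The last question was whether the cortex differed from the hippocampus after the same 6 weeks. In the hippocampus 0 clusters passed limma (555, 2.03%, had an unadjusted p under 0.05), and for the difference between the tissues 0 passed as well (1498, 5.48%, with an unadjusted p under 0.05, smallest adjusted p = 0.467). The count for the difference was 140 without control replicate 1 and 1 without curcumin replicate 1. Thus a difference between the tissues was not shown. The median size of a log2 fold change, up or down, was 0.087 in the cortex and 0.052 in the hippocampus. These sizes include the spread between arrays, which was wider in the cortex. Its curcumin and control pairs differed by 1.5-fold or more at 398 and 585 clusters, against 59 and 100 in the hippocampus, so no larger effect is read from them. For the 19 genes the hippocampal values ran from -0.14 to 0.14, with 6 positive, and the differences (cortex minus hippocampus) ran from 0.31 to 0.99, with a sign that the choice of these genes by their cortical values favours. Slc17a7 had 0.81 in the cortex and 0.06 in the hippocampus, where all 8 arrays lay between 10.56 and 10.77. The cortical controls of 6 weeks, at 9.71 and 9.54, were the only arrays of the series under 10 for this gene.

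**Figure D5:**
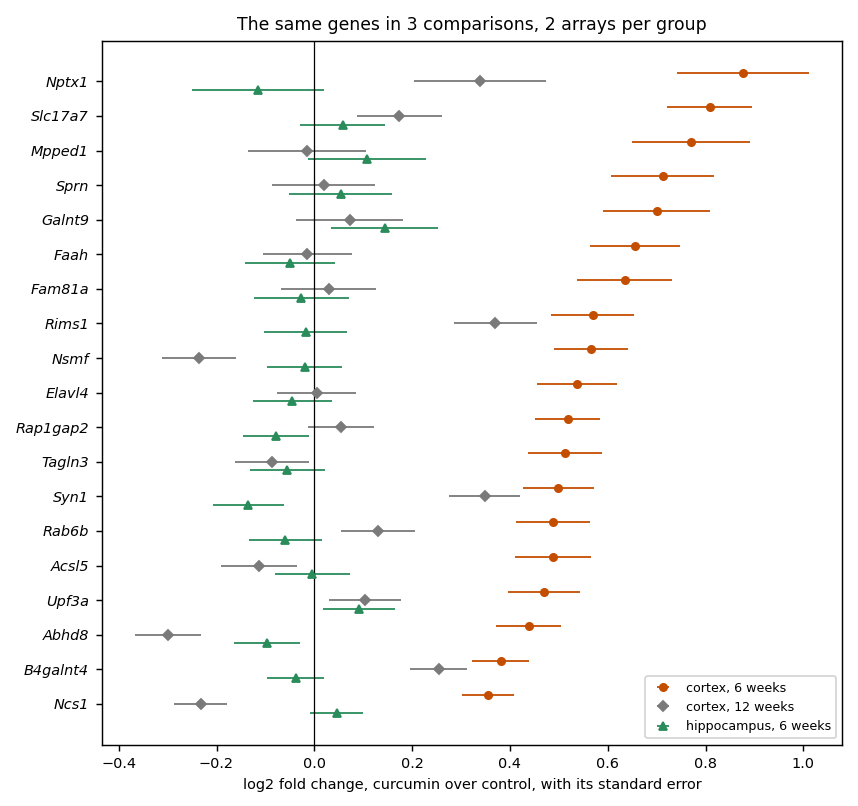
Effect of curcumin on the log2 scale (curcumin minus control; horizontal bars are standard errors from limma, 2 arrays per group) for the 19 named genes in the cortex after 6 weeks (circles), the cortex after 12 weeks (diamonds) and the hippocampus after 6 weeks (triangles). Values at 6 weeks in the cortex run from 0.36 to 0.88, those at 12 weeks from -0.30 to 0.37, and those in the hippocampus from -0.14 to 0.14.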

How the data were processed

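Total RNA of the 16 tissue pools was hybridised to Affymetrix arrays, and the deposited values are log2 expression values that the authors made with Expression Console, RMA and Gene Spring (versions not given in the sources used here). An exon array is named in the methods, but the cluster annotation is that of a gene array. Exactly 1 gene symbol is listed for 15097 of 27342 clusters, several for 323 and none for 11922, and 15067 were matched by gene ID to RefSeq (GRCr8).

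The group means of all 16 arrays were fitted in R 4.3.3 by limma 3.58.1 (default eBayes, 8 residual and 3.12 prior degrees of freedom). Benjamini-Hochberg adjustment ran over every cluster. The steps were tested on simulated data. With 2 arrays against 2, the number of arrays limits the precision. A gene with several clusters is represented by the brightest.

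Named are the genes that passed, the 12 highest and 12 lowest with separate arrays and a mean not in the lowest 25%, the defining members of each list and up to 4 further members with the largest moderated t, and 5 genes for each difference; other genes were chosen after their values were seen. The members and lists were chosen with earlier results of these data known. Results were recomputed without dim clusters, after quantile normalization, without each array, with array weights (equal within each group), with robust estimation and a variance trend, with a block for the replicate number or the pool, on fewer arrays and at a 2-fold threshold.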

Additional observations from a re-analysis of the deposited data

Results flagged for a closer look

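The curcumin effect in the cortex differed between 6 and 12 weeks for 402 clusters in limma, which tests the difference itself. The number ran from 17 without control replicate 2 to 1041 without control replicate 1, and was 62 without curcumin replicate 2. The 12-week arrays stayed in each of these fits. In a fit on the 8 cortical arrays alone, 1 cluster passed for this difference instead of 402.

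Most genes named above were chosen by their 6-week values, which enter this difference, so the sign and number of those that passed follow in part from that choice and are a description. Of the 19 genes that passed at 6 weeks, 11 were among them, with a difference (6 minus 12 weeks) of 0.80 for Nsmf, 0.79 for Mpped1, 0.74 for Abhd8, 0.69 for Sprn, 0.67 for Faah, 0.64 for Slc17a7, 0.60 for Acsl5, 0.60 for Tagln3, 0.59 for Ncs1, 0.53 for Elavl4 and 0.46 for Rap1gap2. Of the projection neuron genes, Neurod6 differed by 1.32 and Fezf2 by 1.23. Among receptors and channels, Chrna5, a subunit of nicotinic receptors, differed by 1.30, Gpr22 by 1.22, Gabra3 by 1.17, Ephb6, an ephrin receptor, by 1.12, Sstr1 by 0.88 and Scn2a by 0.68. Of the other synaptic genes, Sv2b differed by 1.12 and Nptx2 by 0.73, and the peptide gene Cck, described below, by 0.85. Slc15a2 differed by 1.06 and Mob4 by 0.94.

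The phagocyte and MHC class II genes differed the other way, Cd68 by -1.37, RT1-Ba by -1.51, RT1-Da by -3.10 and Cd74 by -3.73. On the 12-week arrays Cd74 alone ranged from 7.34 to 10.67, so its difference carries a spread between arrays at both durations.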

How the results depend on the processing

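With 2 pools per group, single arrays set the number of genes that passed. The count of 29 was 1 to 758 without each array in turn, the count of 402 for the difference between durations was 17 to 1041, the count of 0 for the difference between tissues was 0 to 140, and the 1.5-fold count of 341 was 350 to 801. The 29 became 49 without dim clusters, 104 with a variance trend and robust estimation together, and 0 with array weights, on the 8 cortical arrays or on the 4 arrays alone. The 402 became 636 after quantile normalization, 220 with array weights and 1 on the 8 cortical arrays. At 2-fold, 30 clusters remained (1 higher, 29 lower). Replicate numbers were not taken to pair the samples, since deviations of same-numbered samples correlated at over 0.1 in only 7 of 28 pairs of groups (-0.43 to 0.49, and -0.06 between the curcumin and control arrays compared here). With the replicate number as a block, 1 cluster passed at 6 weeks and 368 for the difference between durations.

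Some values without a call changed sign. Without single arrays the log2 fold change ran from -2.71 to 0.20 for Avp, from -1.74 to 0.76 for Drd1, from -1.98 to 0.40 for Drd2, from -1.47 to 0.55 for Ppp1r1b, from -0.35 to 0.36 for Pvalb (-0.022 after quantile normalization), from -0.065 to 0.065 for Sim1, from -0.048 to 0.37 for Sst, from -0.24 to 0.054 for Tbx21, from -2.29 to 0.16 for Th, from -0.000 to 0.166 for Fibcd1, from -0.080 to 0.084 for Spink8 and from -0.051 to 0.002 for Tdo2. Their cause was not tested. Probe-level data were not used here, so signal over background was not examined.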

Other observations

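Immediate early genes, which neurons switch on with activity, were positive in 12 of 18 in the cortex after 6 weeks (median 0.09, and -0.004 to 0.15 without single arrays). Among them Nr4a2 was at 8.29 and 8.70 on the curcumin arrays and at 8.16 and 7.499 on the control arrays (log2 fold change 0.67, SE 0.26, limma adjusted p = 0.315), and Zfp36, which destabilises cytokine mRNAs, was at 6.31 and 6.32, against 6.85 and 6.94 (-0.58, SE 0.13, adjusted p = 0.108). Neuropeptide genes were positive in 9 of 19 (median -0.07, and -0.09 to 0.01 without single arrays). Cck, a peptide of cortical neurons, was at 9.94 and 10.17, against 9.50 and 9.40 (0.61, SE 0.10, adjusted p = 0.0575), while Scg2, a granin of secretory granules, was at 9.35 and 9.06, against 9.76 and 10.12 (-0.74, SE 0.23, adjusted p = 0.227).

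Of 9 genes of oligodendrocyte precursors, 2 were positive (median -0.06, and -0.10 to -0.02 without single arrays), and Pdgfra, their growth factor receptor, was at 8.32 and 8.22, against 8.36 and 8.57 (-0.19, SE 0.12, adjusted p = 0.588). MHC class II genes were negative in 7 of 8 (median -0.26, and -0.15 without control replicate 2). Genes of endothelium were negative in 9 of 11 (median -0.14, but -0.30 to -0.02 when single arrays were left out, the ends being set by leaving out curcumin replicates 2 and 1). Genes of ependyma and motile cilia were negative in 11 of 13 (median -0.22, but -0.035 without control replicate 1), with Dnah12, a dynein of cilia, at 5.52 and 5.48, against 6.45 and 6.17 (-0.81, SE 0.23, adjusted p = 0.183). Choroid plexus genes had a median of -0.07 (-0.13 to 0.004 without single arrays), neuroblast and dividing cell genes -0.10 (-0.18 to 0.03) and hippocampal genes -0.12 (-0.15 to -0.02).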
